A study of Homo sapiens with 9 samples.

Results

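Transcript levels were compared for 10 genes, called markers below: the CDK inhibitor genes CDKN1A, CDKN1B, CDKN1C, CDKN2A, CDKN2B, CDKN2C and CDKN2D, the lamin genes LMNB1 and LMNA, and RB1. That name is shorthand, and a call of any 1 of them is not by itself a sign of senescence. The genes were chosen by symbol, and all 10 were found among the 58735 genes of the deposited table. The recipient cells were MDA-MB-231, a human cell line from breast cancer, with a wild-type genotype per the labels. The No CM group had medium only, the Cont CM group received conditioned medium of non-senescent cells of the same line, and the TIS CM group that of cells in therapy-induced senescence (TIS), with 3 libraries in each of the 3 groups. Senescence of the donor cells was induced with nocodazole, a microtubule poison, at 100 ng/ml for 72 h. Recipient cells spent 72 h in the media by the sample labels and 48 h by the series' design text. The recipient cells were of 1 line and were not themselves labelled as drug treated, and whether nocodazole was carried over in the TIS medium was not measured. The question these genes address is whether medium of senescent cells moves the arrest markers of recipient cells of the same line, which is called secondary senescence.

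The products of the CDK inhibitor genes and of RB1 act in 1 pathway. The CDK inhibitors bind the cyclin-dependent kinases that drive cells from G1 into S phase: the CIP/KIP members p21 (CDKN1A), p27 (CDKN1B) and p57 (CDKN1C) act on several cyclin-CDK complexes, and the INK4 members p16 (CDKN2A), p15 (CDKN2B), p18 (CDKN2C) and p19 (CDKN2D) act on CDK4 and CDK6. Inhibited kinases leave the retinoblastoma protein, the product of RB1, unphosphorylated and bound to E2F factors, whose target genes are then silent. Senescent cells commonly accumulate p21 and p16 and lose lamin B1, the product of LMNB1, from the nuclear lamina, while the A-type lamins encoded by LMNA persist. MDA-MB-231 is known for a homozygous deletion at the CDKN2A locus; neither DNA sequence nor copy number was measured here.

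For CDKN2C, LMNA and LMNB1 the 250 bases before the gene's start in the deposited table are shown (RefSeq sequences, GRCh38.p14, all on the plus strand). Of these, CDKN2C and LMNA passed the test of TIS CM against Cont CM described below, and LMNB1 did not. The windows are chr1:50960495-50960744 for CDKN2C, chr1:156082323-156082572 for LMNA and chr5:126776373-126776622 for LMNB1. Capitals mark matches, on either strand, to the E2F core (TTGGCGC, its variant TTCCCGC, its variant TTGCCGC and its variant TTCGCGC), the CCAAT box (CCAAT) and the CHR element (TTTGAA and its variant TTCGAA), motifs of cell cycle promoters that do not overlap each other in these windows.
CDKN2C: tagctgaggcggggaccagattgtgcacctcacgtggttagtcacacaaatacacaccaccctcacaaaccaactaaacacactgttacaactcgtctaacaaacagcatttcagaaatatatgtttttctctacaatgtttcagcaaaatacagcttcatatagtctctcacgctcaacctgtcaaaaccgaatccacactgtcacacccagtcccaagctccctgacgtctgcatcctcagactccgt
LMNA: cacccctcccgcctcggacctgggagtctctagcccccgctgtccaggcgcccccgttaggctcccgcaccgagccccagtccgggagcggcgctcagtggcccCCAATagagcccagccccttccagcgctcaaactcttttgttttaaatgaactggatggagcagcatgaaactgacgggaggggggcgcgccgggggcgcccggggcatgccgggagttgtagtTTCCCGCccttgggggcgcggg
LMNB1: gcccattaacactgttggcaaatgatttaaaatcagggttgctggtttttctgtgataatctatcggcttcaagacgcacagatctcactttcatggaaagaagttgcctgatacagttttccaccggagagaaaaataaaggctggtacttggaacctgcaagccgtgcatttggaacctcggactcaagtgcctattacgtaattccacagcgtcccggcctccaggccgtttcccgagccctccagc
The LMNA window holds a CCAAT box 146 bases and an E2F core 22 bases before the start, and the CDKN2C and LMNB1 windows hold none of the motifs searched. Among all 35116 windows of this length, 10.9% hold an E2F core, 32% a CCAAT box and 14.3% a CHR element. RefSeq windows were found for 9 of the 10 genes, 15 windows in all. The other windows described next, not printed here, precede RefSeq starts that lie inside the gene as the table gives it, and distances are from those starts. Before one such start CDKN2C has E2F cores at 131 and 34 bases, before another a CCAAT box at 95 bases, and LMNB1 has a CCAAT box on the minus strand at 138 bases. CDKN1B has CCAAT boxes 174 and 50 bases before such a start and CDKN2D 1 such box 234 bases before, and the CDKN1A window, also before a start inside the gene, holds no match. These matches are letters only and do not show binding.

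Library depth ranged from 32636708 to 39189036 fragments assigned to genes. Levels are given in FPKM, fragments scaled by gene length and library size, in which a lone fragment on 1 kb of gene counts for 0.0255 to 0.0303. Differences were tested with limma on log2(FPKM + 0.5) over all 13912 genes with a mean of at least 0.5 FPKM, and a gene was called at a Benjamini-Hochberg adjusted p under 0.05. Of the 10 genes, 8 passed the filter and 2, CDKN2A and CDKN2B, did not. On the second principal component, which held 17.6% of the variance, Cont CM replicate 1 stood apart at 19.32 against -13.44 and -7.62 in Cont CM replicates 2 and 3. In Cont CM replicate 2 the deviation from the gene mean was tied to the GC content of the gene (r = -0.41 over genes, as a description, against -0.20 to 0.22 in the other libraries). Markers of a mesenchymal breast cancer line were present, 6 of 7 at a mean of at least 0.5 FPKM, with summed levels between 857 and 926 FPKM. Fibroblast markers summed to between 2.12 and 2.81 FPKM with DCN at 0, and endothelial markers to between 1.38 and 1.96 FPKM. The 5 immune markers summed to between 4.58 and 5.85 FPKM in No CM, between 3.24 and 4.16 in Cont CM and between 4.61 and 5.30 in TIS CM. The 8 genes of hormone receptors and luminal breast, 5 of them at a mean of at least 0.5 FPKM, summed to between 400.01 and 428.4 FPKM in No CM, between 302.4 and 340.01 in Cont CM and between 349.6 and 360.1 in TIS CM, and the 3 groups did not overlap. Most of these sums came from the keratin genes KRT8, KRT18 and KRT19, while ESR1, the estrogen receptor gene, had group means of at most 0.00404 FPKM. Most of the immune sums came from CD14 (4.75, 3.38 and 4.47 FPKM in No CM, Cont CM and TIS CM), with the pan-leukocyte gene PTPRC at group means of at most 0.0259 FPKM. Epithelial adhesion genes summed to between 46.2 and 49.6, between 43.0 and 48.1 and between 49.3 and 54.3 FPKM in these groups. The means of the luminal sums had the same order of groups as those of CDKN1B, CDKN1C, CDKN2C, LMNB1 and LMNA, and their part in the results was not tested. The libraries were bulk samples, so that fewer expressing cells and less RNA per cell cannot be told apart. No source states that replicates were separate cultures, so the spread behind each p-value may be technical.

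In TIS CM against Cont CM, CDKN1A did not pass the test, LMNB1 was not lower, and CDKN2A was at 0 in all libraries. Of the 8 tested genes, 2 were called higher, CDKN2C by 1.36-fold and LMNA by 1.16-fold, and 0 were called lower. Among all tested genes 4.48% were called, 2.9% higher and 1.57% lower. The groups did not overlap for 6 of the 8, of which 5 were higher in TIS CM (CDKN1B, CDKN1C, CDKN2C, LMNB1 and LMNA) and 1 was lower (RB1), where 28.6% of all tested genes did not overlap, 15% higher and 13.6% lower. With Cont CM replicate 1, the library that stood apart, left out, 6 of 8 were called higher (CDKN1B, CDKN1C, CDKN2C, CDKN2D, LMNB1 and LMNA). Of all genes 7.79% were then called, 4.85% higher and 2.94% lower. Without Cont CM replicate 2, or without Cont CM replicate 3, only CDKN2C of the 8 was called, and 99 and 448 genes in all. Without TIS CM replicate 1, or without TIS CM replicate 2, 0 of 8 were called, and 11 and 25 genes in all.

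More of the 8 genes passed between the 2 controls. Cont CM had 5 of them lower than No CM (CDKN1B, CDKN1C, CDKN2C, LMNB1 and LMNA) and 0 higher, against 16.3% of all tested genes called, 8.56% lower and 7.77% higher. The groups did not overlap for 6 of 8, 5 lower and 1 higher (RB1), where 33.3% of all tested genes did not overlap, 16.8% lower and 16.6% higher. When Cont CM replicate 1 was left out, 7 of 8 passed, CDKN2D too being lower and CDKN1A higher, and 19.9% of all genes. Without Cont CM replicate 2, or without Cont CM replicate 3, the same 5 passed as with all libraries. In TIS CM against No CM limma called 0 of 8, where it called 0.855% of all tested genes, 0.403% higher and 0.453% lower. Of the 8, 4 lay at an unadjusted p under 0.05, all lower in TIS CM (CDKN1B, CDKN1C, CDKN2C and LMNB1), as did 6.17% of all tested genes in that direction and 13.6% in either. Voom on recovered fragments also called 0 of the 8. A fit of these 2 groups alone called 3 of them, CDKN1C, CDKN2C and LMNB1, all lower in TIS CM. It called 331 of the 13912 tested genes, 155 of them lower. The groups did not overlap for 6 of 8 (1 higher, CDKN1A, and 5 lower), where 24.4% of all tested genes did not overlap, 12.7% higher and 11.6% lower. If Cont CM replicate 1 was left out, CDKN1C, CDKN2C and LMNB1 were called lower in TIS CM than in No CM, where 2.62% of all tested genes were called, 1.22% lower. Without Cont CM replicate 2, or without Cont CM replicate 3, 0 of 8 were called. The 3 comparisons share their groups and are not independent of each other. For 7 of the 8 genes, RB1 being the exception, the mean of TIS CM fell between those of the other groups, which gives no test.

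**Figure D1:**
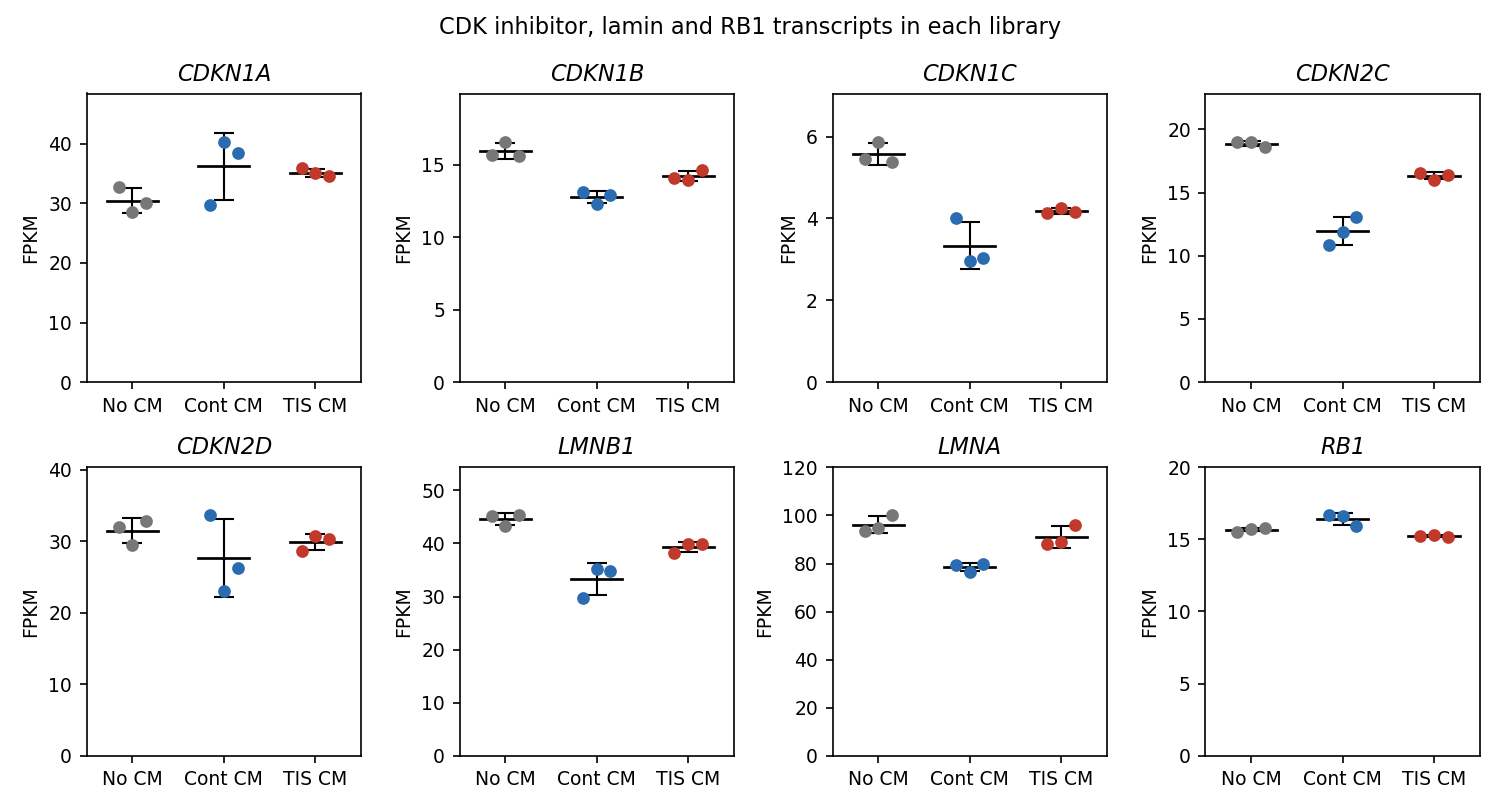
FPKM of the 8 tested genes (vertical axes, each from 0) in the libraries of No CM, Cont CM and TIS CM, where points are libraries in replicate order from left to right, bars the group means and whiskers 1 SD (n = 3). For CDKN2C the 3 TIS CM libraries sit at 16.6, 16.0 and 16.4, between Cont CM and No CM and overlapping neither.

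Among the CIP/KIP genes, CDKN1A did not differ between TIS CM and Cont CM beyond the spread of the libraries. CDKN1A encodes p21, which inhibits CDK2 and other cyclin-CDK complexes and is the CDK inhibitor most often raised early in damage-induced arrest (chromosome 6, 36676460 to 36687339, hg38). It stood at 32.6, 28.5 and 30.0 FPKM in No CM, at 29.7, 40.3 and 38.5 in Cont CM and at 35.8, 35.0 and 34.5 in TIS CM. Cont CM replicate 1 lay among the No CM libraries, the other Cont CM libraries lay above all others, and the TIS CM libraries lay above all of No CM. The means were 30.4 ± 2.08, 36.2 ± 5.64 and 35.1 ± 0.68 FPKM (SD, n = 3). The log2 difference of TIS CM from Cont CM was -0.03, with a 95% interval from -0.26 to 0.20 (limma adjusted p = 0.889), which spans from 0.837-fold to 1.15-fold. This difference changed sign, to 0.05 and 0.02, without Cont CM replicates 2 or 3. Cont CM against No CM gave 0.24 (limma adjusted p = 0.144), and 0.37 (adjusted p = 0.00339) without Cont CM replicate 1. Without Cont CM replicates 2 or 3 it gave 0.15 and 0.19 (limma adjusted p = 0.361 and 0.322). TIS CM against No CM gave 0.21, with a 95% interval from -0.02 to 0.43 (limma adjusted p = 0.412). CDKN1A overlaps the antisense gene DINOL, which drew 10 fragments over the 9 libraries against 33595 for CDKN1A. The sources used here do not state whether fragments were counted by strand.

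CDKN1B encodes p27, which holds cells in G1 when growth factors are scarce (chromosome 12, 12715058 to 12722371). It stood at 15.7, 16.6 and 15.6 FPKM in No CM, at 13.1, 12.3 and 12.9 in Cont CM and at 14.1, 14.0 and 14.6 in TIS CM. All 3 groups were apart, with No CM highest and Cont CM lowest. Cont CM against No CM gave a log2 difference of -0.31 (SE 0.04, limma adjusted p = 0.00196). TIS CM differed from Cont CM by 0.15 and from No CM by -0.16, and neither passed (limma adjusted p = 0.0702 and 0.136). The difference from Cont CM was 0.17 and passed without Cont CM replicate 1 (limma adjusted p = 0.0497). It was 0.13 and 0.16 and did not pass without Cont CM replicates 2 or 3 (limma adjusted p = 0.165 and 0.109). The overlapping gene AC008115.3 drew 284 fragments against 13038 for CDKN1B.

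CDKN1C encodes p57, an imprinted gene's product and the CDK inhibitor tied to differentiation (chromosome 11, 2883213 to 2885773). It was the lowest of the 8 tested genes, with 3492 fragments over the 9 libraries. It stood at 5.46, 5.88 and 5.38 FPKM in No CM, at 4.0, 2.97 and 3.04 in Cont CM and at 4.14, 4.25 and 4.15 in TIS CM. No CM was highest, and the highest Cont CM library, replicate 1, lay just under the lowest TIS CM library. Its fall from No CM to Cont CM was 1.59-fold (log2 difference -0.67, SE 0.09, limma adjusted p = 0.00223). TIS CM against Cont CM gave 0.30, with a 95% interval from 0.09 to 0.51 (limma adjusted p = 0.099). It gave 0.42 without Cont CM replicate 1 (adjusted p = 0.00927), and 0.23 and 0.24 without Cont CM replicates 2 or 3 (limma adjusted p = 0.231 and 0.203). TIS CM against No CM gave -0.37 (limma adjusted p = 0.122), and -0.37 without Cont CM replicate 1 as well, where the adjusted p was 0.0106. This difference from No CM also passed in a fit of these 2 groups alone. After removal of each library's dependence on GC content and gene length, a setting chosen after seeing the data, the difference of TIS CM from Cont CM was 0.18 (limma adjusted p = 0.225). The transcript's GC content, 63.8%, is the highest among the 10 genes.

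Of the INK4 genes, CDKN2C was called in both comparisons with Cont CM, where it was lowest. It encodes p18, which binds CDK6 and CDK4 (chromosome 1, 50960745 to 50974633). Its levels were 19.0, 19.0 and 18.6 FPKM in No CM, 10.8, 11.9 and 13.1 in Cont CM, and 16.6, 16.0 and 16.4 in TIS CM. The 3 groups were apart, and the Cont CM libraries spread more than those of the other groups. CDKN2C fell 1.56-fold from No CM to Cont CM (log2 difference -0.65, SE 0.06, limma adjusted p = 0.000295) and was 1.36-fold higher in TIS CM than in Cont CM (log2 difference 0.44, 95% interval from 0.31 to 0.57, limma adjusted p = 0.0113). The latter call held in 18 of 22 alternative analyses. The call was lost without TIS CM replicate 1 (0.43, adjusted p = 0.0609), without TIS CM replicate 2 (0.45, adjusted p = 0.0576), in a fit of the 2 groups alone (adjusted p = 0.0565), and with the replicate block and the GC and length trend removed together (0.37, adjusted p = 0.101). TIS CM against No CM gave -0.20, which did not pass (limma adjusted p = 0.17). The same difference of -0.20 passed without Cont CM replicate 1 (limma adjusted p = 0.025) and in a fit of these 2 groups alone.

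CDKN2D encodes p19, the INK4 protein whose transcript normally peaks around S phase (chromosome 19, 10566462 to 10569059). Levels were 32.0, 29.5 and 32.9 FPKM in No CM, 33.6, 23.0 and 26.3 in Cont CM, and 28.6, 30.8 and 30.3 in TIS CM. Cont CM replicate 1 was the highest of the 9 libraries and Cont CM replicate 2 the lowest, so that Cont CM overlapped both other groups. TIS CM against Cont CM gave a log2 difference of 0.13, with a 95% interval from -0.13 to 0.39 (limma adjusted p = 0.546), and Cont CM against No CM gave -0.20 (adjusted p = 0.277). Both differences passed without Cont CM replicate 1, at 0.28 (limma adjusted p = 0.0445) and -0.35 (adjusted p = 0.00943). Neither passed in any other of the 22 alternatives. Without Cont CM replicate 2, TIS CM against Cont CM gave 0.006 (limma adjusted p = 0.98).

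CDKN2A, which encodes p16 and, in another reading frame, ARF, and CDKN2B, which encodes the TGF-beta-responsive p15, drew 0 fragments in all 9 libraries. A count of 0 allows up to 3 fragments, which corresponds to between 0.0177 and 0.0210 FPKM for CDKN2A and between 0.0189 and 0.0224 FPKM for CDKN2B, for counting error only. No group difference can be read for either gene. They lie side by side on chromosome 9, CDKN2A at 21967753 to 21995301 and CDKN2B at 22002903 to 22009363, both on the minus strand, and the antisense gene CDKN2B-AS1 across them was also at 0. Within 1 Mb of CDKN2A the table lists 60 genes, of which 56 were at 0 in every library. The other 4 were MTAP, a methylthioadenosine phosphorylase gene next to CDKN2A, with 6 fragments over the 9 libraries, KLHL9 with 1, FOCAD with 529 and the processed pseudogene CLIC4P1 with 441. CLIC4P1 is a copy of CLIC4, which stood at 98.1, 112.7 and 106.7 FPKM in No CM, Cont CM and TIS CM, so its fragments are uncertain. The nearest protein-coding genes at a mean of at least 0.5 FPKM were MLLT3, 1.35 Mb before CDKN2A at 1.88 FPKM, and TUSC1, 3.68 Mb after it at 7.66 FPKM. Of the 26 protein-coding genes in the 5.05 Mb between them, 3 drew any fragment. These flanking genes were chosen after their values were seen.

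**Figure D2:**
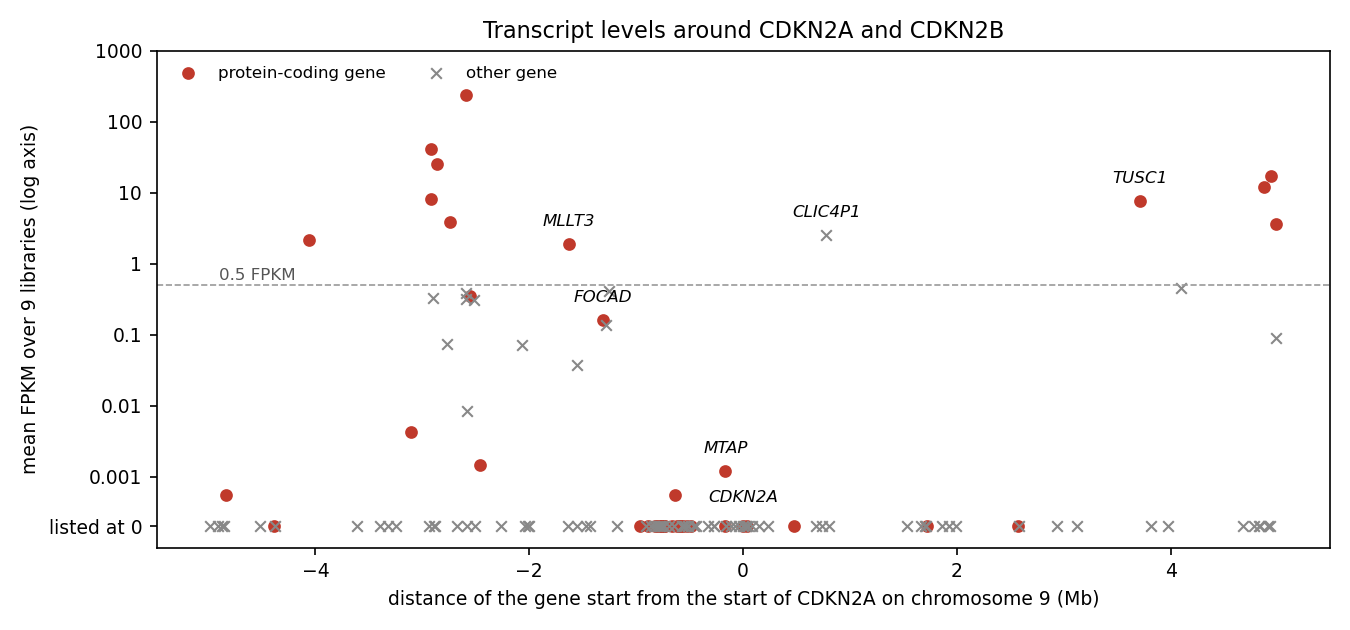
Mean FPKM over the 9 libraries (log axis, with genes at 0 on the lowest line) of genes of chromosome 9 against the distance of their start from that of CDKN2A in Mb, with protein-coding genes as filled circles and other genes as crosses. CDKN2A lies in a run of protein-coding genes at or near 0 between MLLT3, at 1.88 FPKM, and TUSC1, at 7.66 FPKM.

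Both lamin genes were lowest in Cont CM. LMNB1 encodes lamin B1, a farnesylated lamina protein whose loss is a marker of senescence (chromosome 5, 126776623 to 126837020). It stood at 45.1, 43.3 and 45.4 FPKM in No CM, at 29.8, 35.2 and 34.8 in Cont CM and at 38.2, 40.0 and 39.9 in TIS CM. The groups were apart, No CM highest and Cont CM lowest, with Cont CM replicate 1 the lowest library. LMNB1 fell 1.34-fold from No CM to Cont CM (log2 difference -0.42, SE 0.06, limma adjusted p = 0.00273). In TIS CM it was not lower than in Cont CM: the log2 difference was 0.24, with a 95% interval from 0.11 to 0.38 (limma adjusted p = 0.0577). That interval lies above 0, while the difference missed the threshold over all genes. It passed in 4 of 22 alternatives, among them without Cont CM replicate 1 (0.17, adjusted p = 0.0321) and with voom. Against No CM, LMNB1 in TIS CM differed by -0.18, with a 95% interval from -0.32 to -0.04 (limma adjusted p = 0.24, and 0.028 without Cont CM replicate 1). This difference from No CM also passed in a fit of these 2 groups alone.

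LMNA, which encodes lamins A and C, had the highest level of the 10 genes in every library (chromosome 1, 156082573 to 156140089). Levels were 93.3, 94.9 and 100.2 FPKM in No CM, 79.3, 76.6 and 79.6 in Cont CM, and 88.0, 88.9 and 96.2 in TIS CM. All Cont CM libraries lay below all others, and TIS CM overlapped No CM. LMNA fell 1.22-fold from No CM to Cont CM (log2 difference -0.29, SE 0.05, limma adjusted p = 0.00374). It was 1.16-fold higher in TIS CM than in Cont CM (log2 difference 0.21, 95% interval from 0.11 to 0.31, limma adjusted p = 0.0381). This call was lost in 14 of 22 alternatives, with adjusted p up to 0.178, among them 7 of the 9 that left out 1 library and the removal of the GC and length trend (0.12, adjusted p = 0.153). It remained without Cont CM replicate 1 (0.22, adjusted p = 0.0378) and without No CM replicate 3 (0.21, adjusted p = 0.0495). TIS CM against No CM gave -0.08 (limma adjusted p = 0.493). The ratio of LMNB1 to LMNA, both per length, was between 0.453 and 0.483 in No CM, between 0.375 and 0.46 in Cont CM, and between 0.415 and 0.45 in TIS CM. The TIS CM ratios lay within the range of Cont CM, whose lowest was replicate 1.

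RB1, the pocket protein gene on which the INK4 pathway converges, lay between 15.2 and 16.7 FPKM in all 9 libraries (chromosome 13, 48303726 to 48599436). It stood at 15.5, 15.7 and 15.7 FPKM in No CM, at 16.7, 16.6 and 15.9 in Cont CM and at 15.2, 15.3 and 15.2 in TIS CM. The 3 groups were apart, Cont CM highest and TIS CM lowest. TIS CM against Cont CM gave a log2 difference of -0.10, with a 95% interval from -0.18 to -0.03 (limma adjusted p = 0.106). Cont CM against No CM gave 0.06 (limma adjusted p = 0.226) and TIS CM against No CM -0.04 (adjusted p = 0.665). With the GC and length trend removed, Cont CM against No CM was 0.00 and TIS CM against Cont CM was -0.04. RB1 has the lowest GC content of the 10 genes, 37.3%. Among 9 overlapping genes RCBTB2 drew the most fragments, 904 against 32913 for RB1.

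**Figure D3:**
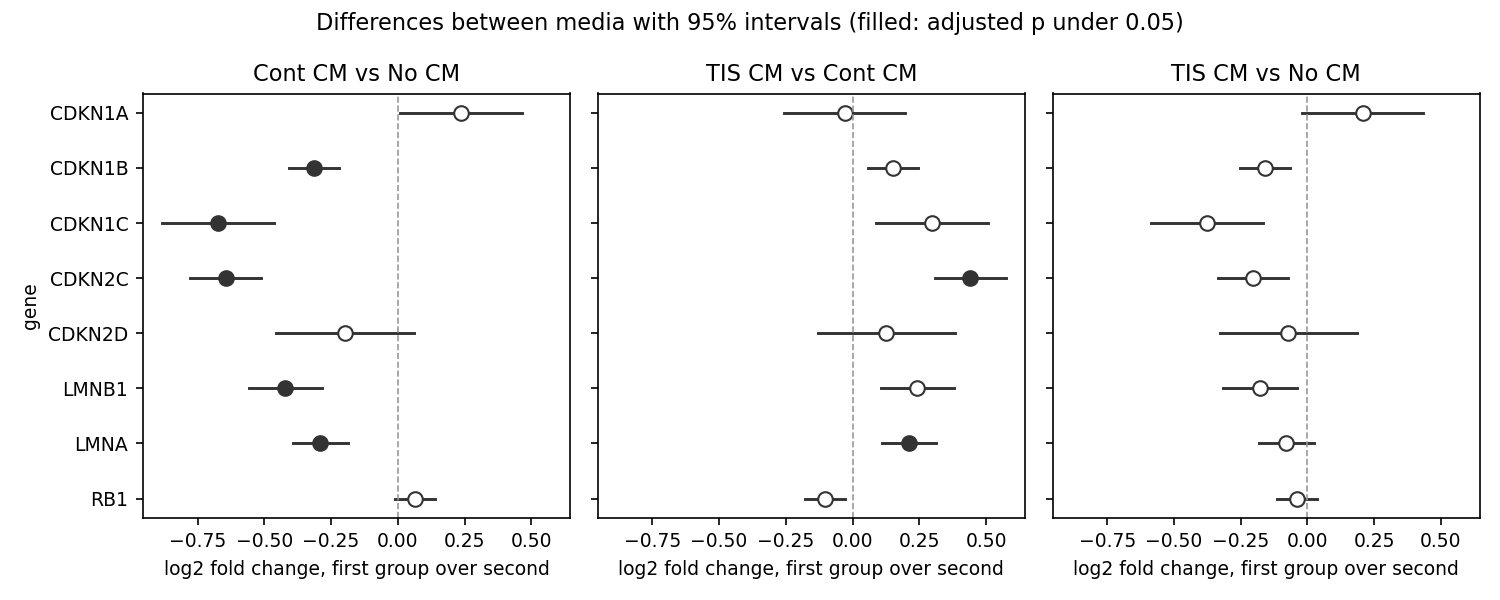
Log2 fold changes of the 8 tested genes (horizontal axes, first group over second, with 95% intervals as lines) in Cont CM against No CM, TIS CM against Cont CM and TIS CM against No CM, where filled points passed an adjusted p of 0.05. The called genes are CDKN1B, CDKN1C, CDKN2C, LMNB1 and LMNA, all lower, in the first panel, CDKN2C and LMNA, both higher, in the second, and none in the third.

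In the order of mean levels, LMNA and LMNB1 led in No CM and TIS CM, followed in No CM by CDKN2D and CDKN1A, which overlapped, then CDKN2C, CDKN1B and RB1, the last 2 overlapping, and CDKN1C. In TIS CM the order was LMNA, LMNB1, CDKN1A, CDKN2D, CDKN2C, RB1, CDKN1B and CDKN1C, and no neighbours overlapped. In Cont CM CDKN1A, LMNB1 and CDKN2D, behind LMNA, each overlapped the next, RB1 followed, and below it CDKN1B overlapped CDKN2C. Across the 9 libraries, which share the 3 groups, LMNB1 correlated with CDKN2C with r = 0.958, CDKN1B with CDKN1C with r = 0.957 and CDKN1A with CDKN1C with r = -0.834, given as a description. Among 6877 other protein-coding genes with a mean of at least 5 FPKM, those most like LMNB1 over the 9 libraries were TMEM214 (r = 0.995), HLA-DPB1 (r = 0.992) and HLA-DPA1 (r = 0.989). Those most like CDKN2C were FOXP4, GPC1 and SMPD1 (r between 0.983 and 0.987). For CDKN1A they were TDP1, TSC22D1 and GART (r between 0.974 and 0.978), for CDKN1B CDC42EP4, MAT2B and ZFP36L2 (between 0.982 and 0.984), and for CDKN1C CDC42EP4, DNM2 and MYO18A (between 0.981 and 0.99). For LMNA they were ADI1, LASP1 and GPAA1 (between 0.979 and 0.985), for RB1 SDCBP, PRKAR1A and RAB18 (between 0.966 and 0.972), and for CDKN2D EHBP1L1, VPS51 and GNE (between 0.944 and 0.952).

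The kinases and cyclins on which the inhibitors act were tested in the same fit. For list counts here and below, 4.48% of all tested genes were called in TIS CM against Cont CM, 2.9% higher and 1.57% lower. In Cont CM against No CM 16.3% were called, 7.77% higher and 8.56% lower, and in TIS CM against No CM 0.855%. Without Cont CM replicate 1 these shares were 7.79%, 19.9% and 2.62%. No list was tested as a set. Of 13 tested cyclin and CDK genes of G1 and S phase, 1 rose and 0 fell in TIS CM against Cont CM, with a median log2 difference of -0.01 (0.00 over all tested genes). CCNA2, the gene of the S-phase cyclin A2, went from 83.1 ± 4.08 FPKM in Cont CM to 97.6 ± 3.85 in TIS CM (limma adjusted p = 0.0346). CDK4 stood at 51.0 ± 1.21 and 54.7 ± 2.34 FPKM, CDK6 at 7.62 ± 1.02 and 6.89 ± 0.293, CCND1, cyclin D1, at 179.5 ± 4.14 and 178.8 ± 4.0, CCNE1, cyclin E1, at 8.67 ± 0.365 and 8.14 ± 0.203, and CDK2 at 25.3 ± 1.72 and 24.8 ± 0.224, none of which passed. Between Cont CM and No CM, 2 of the 13 were higher in Cont CM and 2 lower (median 0.03): CDK2 rose 1.12-fold (adjusted p = 0.0482) and CCNH, a subunit of the CDK-activating kinase, 1.3-fold, while CCNA2 fell 1.2-fold and CCNA1 1.39-fold. Of 13 RB and E2F family genes, 0 passed in TIS CM against Cont CM (median 0.02), with 0.15 for E2F1, the activator that RB1's product restrains. Against No CM, Cont CM had 3 of them higher, the E2F genes E2F5 and E2F7 and their partner TFDP2, by between 1.17 and 1.21-fold, and 2 lower, E2F2 by 1.42-fold and E2F8 by 1.2-fold (median 0.02). Of 7 DREAM and MuvB complex genes, 0 passed in either comparison (medians 0.09 and 0.01).

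Of 28 E2F target and proliferation genes, 2 rose, 0 fell and 26 did not pass in TIS CM against Cont CM (median 0.08). There 2.9% of all tested genes rose and 1.57% fell. TK1, thymidine kinase, rose 1.23-fold from 87.1 to 107.1 FPKM (limma adjusted p = 0.018) and BIRC5, the mitotic protein survivin, 1.25-fold from 38.1 to 47.7 FPKM (adjusted p = 0.0363). Compared with No CM, Cont CM had 8 of the 28 lower and 0 higher (median -0.11), against 8.56% and 7.77% of all tested genes. CCNB2, TK1 and BIRC5 were 1.23, 1.23 and 1.2-fold lower. MKI67, the proliferation antigen, stood at 38.3 ± 3.78, 37.4 ± 4.36 and 36.2 ± 1.59 FPKM in No CM, Cont CM and TIS CM and passed in neither comparison. Without Cont CM replicate 1 there were again 2 higher, TK1 and BIRC5, and 8 lower, with CDC20 in place of CCNB2, and medians of 0.05 and -0.06. Of all tested genes 4.85% were then higher in the former comparison and 10.3% lower in the latter.

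Among 17 tested nuclear lamina and envelope genes, LMNA and 2 others rose in TIS CM against Cont CM, 0 fell and 14 did not pass (median 0.06). There 2.9% of all tested genes rose and 1.57% fell. SUN2, which ties the lamina to the cytoskeleton, rose 1.22-fold from 18.0 to 22.0 FPKM (limma adjusted p = 0.0242) and the chromatin tether BANF1 1.16-fold from 120.1 to 139.0 FPKM (adjusted p = 0.0316). LMNB2, the other B-type lamin, stood at 98.2 ± 3.85, 88.5 ± 4.32 and 99.3 ± 2.10 FPKM in No CM, Cont CM and TIS CM, and its differences of 0.17 from Cont CM and of Cont CM from No CM (-0.15) did not pass (adjusted p = 0.0714 and 0.0557). From No CM to Cont CM 6 of the 17 fell and 0 rose (median -0.05), against 8.56% and 7.77% of all tested genes. LMNB1, LMNA, BANF1 and SUN2 were among those that fell. So was FNTB, the farnesyltransferase subunit that modifies B-type lamins, by 1.28-fold from 2.25 to 1.66 FPKM. The counts without Cont CM replicate 1 were 5 higher in the first comparison and 6 lower in the second, against 4.85% and 10.3% of all tested genes.

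Genes that set the level of the inhibitors were also examined. Of 15 genes for turnover of p21 and p27, 0 passed in TIS CM against Cont CM (median 0.06), against 4.48% of all tested genes. Without Cont CM replicate 1, 0 were higher and 1 lower, against 4.85% and 2.94% of all tested genes. SKP2, the F-box protein that marks p27 for degradation, stood at 12.1, 11.8 and 11.6 FPKM in No CM, 7.05, 10.8 and 10.2 in Cont CM and 10.8, 11.3 and 12.1 in TIS CM; Cont CM replicate 1 was the lowest, and neither difference passed (limma adjusted p = 0.0962 against No CM and 0.215 for TIS CM against Cont CM). From No CM to Cont CM 2 of the 15 fell, against 8.56% of all tested genes: CKS1B, the cofactor of SKP2, by 1.1-fold and the p27 ligase gene RNF123 by 1.21-fold. Of 20 transcription factor genes that act on CDK inhibitor genes, ID1, an inhibitor of helix-loop-helix factors, was higher in TIS CM than in Cont CM (79.7 against 57.1 FPKM, 1.4-fold, limma adjusted p = 0.0145) and ETS1 lower (46.7 against 58.8 FPKM, 1.25-fold, adjusted p = 0.018; median -0.07). Cont CM against No CM had 3 higher (ETS1 1.38-fold, KLF6 1.19-fold and MYC 1.15-fold) and 2 lower (ID1 1.97-fold and HES1 1.79-fold, median 0.015). Of all tested genes 7.77% were higher and 8.56% lower. ID1 was also lower in TIS CM than in No CM, where it stood at 112.4 FPKM (limma adjusted p = 0.0236), the only call of that list in that comparison.

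MDM2, a ubiquitin ligase gene, stood at 4.78 ± 0.257, 4.68 ± 0.319 and 4.34 ± 0.151 FPKM in No CM, Cont CM and TIS CM and did not pass. Of 14 genes of Polycomb complexes, which silence the INK4 locus, and of the turnover of their histone mark, CBX6 rose in TIS CM against Cont CM by 1.15-fold (limma adjusted p = 0.0396, median 0.02). In Cont CM against No CM RNF2 and KDM6B, the gene of a demethylase that removes the Polycomb mark, rose by 1.19 and 1.26-fold while EZH2 and CBX6 fell by 1.22 and 1.21-fold (median -0.06). Of all tested genes 4.48% were called in the former comparison and 16.3% in the latter.

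Of 27 other senescence markers, 0 rose and 2 fell in TIS CM against Cont CM, both cytokine genes (median 0.04). There 2.9% of all tested genes rose and 1.57% fell. IL1A, which encodes interleukin 1 alpha, stood at 7.88, 7.69 and 7.34 FPKM in No CM, 33.5, 37.7 and 36.7 in Cont CM and 18.2, 17.4 and 14.8 in TIS CM, with a 2.11-fold lower mean in TIS CM against Cont CM (limma adjusted p = 0.000675). IL1B, the gene of interleukin 1 beta, was 1.56-fold lower (17.4 against 27.3 FPKM, adjusted p = 0.0122). From No CM to Cont CM 6 of the 27 rose and 4 fell (median -0.02), against 7.77% and 8.56% of all tested genes. IL1A rose 4.48-fold, IL1B 2.85-fold and IL6, the gene of the secreted interleukin 6, 1.78-fold (limma adjusted p = 0.0247), with Cont CM replicate 1 at 98.5 FPKM of IL6 against 52.3 and 53.6 in Cont CM replicates 2 and 3. PTPRJ, H2AFX, the histone H2AX gene, and HMGB2, a chromatin protein lost in senescence, fell by 1.41, 1.24 and 1.18-fold. IL1A and IL1B were the 2 genes of the list called in TIS CM against No CM, both higher. HMGB2 stood at 86.0 ± 2.88, 73.0 ± 7.51 and 83.6 ± 3.59 FPKM in No CM, Cont CM and TIS CM, and GLB1, which encodes the enzyme behind senescence-associated beta-galactosidase staining, at 22.1 ± 0.507, 20.8 ± 1.94 and 22.7 ± 1.52 FPKM. Neither passed in TIS CM against Cont CM (adjusted p = 0.132 and 0.304). The marker list without Cont CM replicate 1 held 2 higher and 4 lower in TIS CM against Cont CM, and 9 higher and 5 lower in Cont CM against No CM. Of all tested genes 4.85% were then higher and 2.94% lower in the former comparison, and 9.57% higher and 10.3% lower in the latter.

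Many of the calls on these neighbouring genes were lost when 1 library was left out, also a library outside the comparison. Of the 10 genes named above as called in TIS CM against Cont CM that are not among the 10 markers, 9 lost the call when at least 1 of the 9 libraries was left out, the exception being IL1A. The numbers that lost it were 9, 8 and 7 without TIS CM replicates 1, 2 and 3, 0, 7 and 3 without Cont CM replicates 1, 2 and 3, and 3, 1 and 2 without No CM replicates 1, 2 and 3. Of 32 so named in Cont CM against No CM, 17 lost it in at least 1 of the 9 omissions and 15 kept it, among them TK1, E2F2, E2F8, ETS1, ID1, BANF1, SUN2, IL1A and IL1B. The numbers lost were 13, 11 and 17 without No CM replicates 1, 2 and 3, 2, 9 and 8 without Cont CM replicates 1, 2 and 3, and 5, 7 and 7 without TIS CM replicates 1, 2 and 3. In TIS CM against No CM, ID1 lost its call when any 1 of the No CM or TIS CM libraries was left out, and IL1A and IL1B kept theirs in all 9 omissions. Between Cont CM and No CM the calls of CDKN1B, CDKN1C, CDKN2C, LMNB1 and LMNA held in all 22 alternatives.

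**Figure D4:**
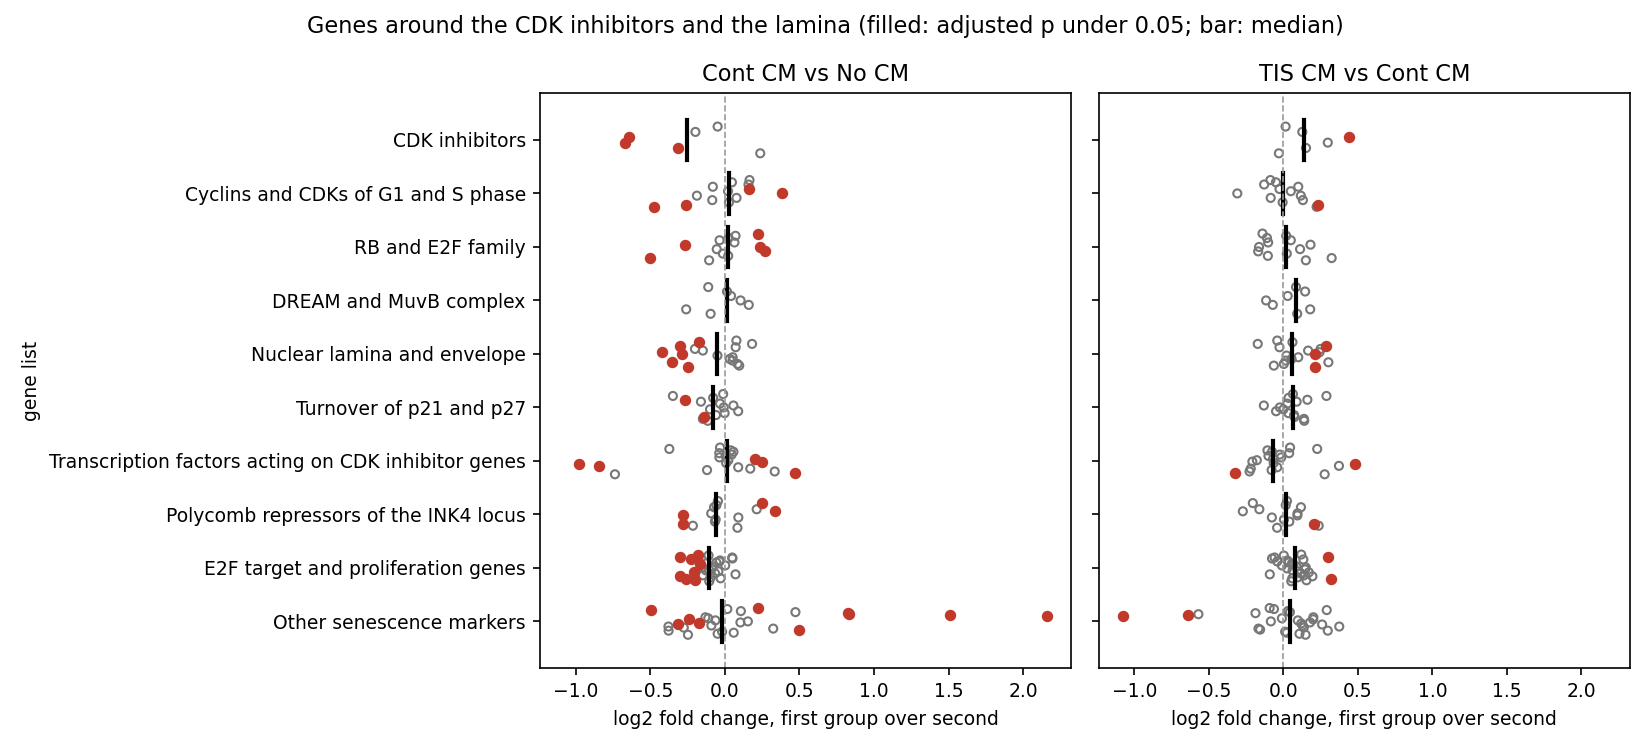
Log2 fold changes (horizontal axes, first group over second) of the tested genes of 10 lists in Cont CM against No CM and in TIS CM against Cont CM, where filled points passed an adjusted p of 0.05 and black bars are list medians. The list medians lie between -0.26 and 0.03 in the first panel and between -0.07 and 0.14 in the second, and the CDK inhibitor list has the lowest median in the first and the highest in the second.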

How the data were processed

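Polyadenylated RNA of 9 libraries was sequenced, per the labels' protocols. Tools named without roles in the submitters' processing notes are HISAT2 2.0.5, fastp, DESeq2 1.20.0 and featureCounts 1.5.0-p3, with build hg38. The authors deposited FPKM for 58735 genes. Multiplied by gene length, 100% of deposited FPKM values were whole steps within 0.01, so fragments were recovered. Gene identifiers and positions matched GENCODE 29 for 99.98%.

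Values of log2(FPKM + 0.5) of all 9 libraries were fitted with limma 3.58.1 (R 4.3.3), with a trend and Benjamini-Hochberg adjustment over 13912 genes with a mean of at least 0.5 FPKM. The scale understates changes of low genes, and fold changes are on it. The test was checked on simulated data, whose nonzero changes were larger than the marker differences of TIS CM from Cont CM. That check does not cover differences as small as these. Named genes were the 10 markers, a fixed set, and up to 3 called, non-overlapping genes per list, comparison and direction. Genes and lists were chosen with earlier results of these data known. A few genes and 1 list are not reported here and were left out of list counts. Alternatives were other pseudocounts, filters and scalings, protein-coding genes, voom, 2 groups only, a replicate block, each library left out, and removal of GC and length trends. Tables and figures used Python 3.11.15 and matplotlib 3.10.9.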

Additional observations from a re-analysis of the deposited data

How the results depend on the processing

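Among TIS CM against Cont CM calls, the main analysis gave 623 genes and 2 of the 10 markers. No filter gave 207 and 1, the 2 groups alone 33 and 0, and removal of the trend with GC content and length 159 and 1. Equal library sums and quantile normalization gave 1 marker each. A mean of at least 2 FPKM gave 782 and 3, protein-coding genes alone 995 and 3, and voom on recovered fragments 1085 and 3. Leaving out each library gave between 11 and 1084 genes and between 0 and 6 markers. In Cont CM against No CM the 2272 genes became 1242 with the 2 groups alone and between 1075 and 2770 with a library left out, and the markers stayed between 5 and 7. In TIS CM against No CM the 119 genes became 46 with no filter, 210 with protein-coding genes, 245 with voom, 331 with the 2 groups alone and between 9 and 365 with a library left out, and the 0 markers became 3 with the 2 groups alone and between 0 and 3 with a library left out. Equal library sums turned the split of calls from 64.8% to 41.8% higher in TIS CM against Cont CM (quantile normalization 53.2%), from 47.6% to 38.1% in Cont CM against No CM and from 47.1% to 20.9% in TIS CM against No CM. None of the causes was tested.

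Same-numbered libraries did not deviate together (r between -0.19 and 0.08), so the numbers are not shown to pair them. With the replicate number as a block, 126, 1461 and 4 genes were called in TIS CM against Cont CM, Cont CM against No CM and TIS CM against No CM, with 1 marker in the first. The block with the GC and length trend removed gave 15, 1420 and 6 genes and 0 markers in the first.

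Differences near 0 changed sign. In TIS CM against Cont CM, omissions of 1 library gave CDKN1A between -0.163 and 0.053, CDK2 between -0.076 and 0.020, CCND1 between -0.025 and 0.005 and MKI67 between -0.135 and 0.031, and MKI67 was 0.013 with the trend removed, with or without the block. In Cont CM against No CM, omissions gave MKI67 between -0.111 and 0.057 and MDM2 between -0.077 and 0.010, and RB1 was -0.000 with the trend removed, with or without the block. With 3 libraries a group, the differences of TIS CM from Cont CM for CDKN1B (0.15) and LMNB1 (0.24) lay near the threshold. Size alone did not set the call: LMNA passed at 0.21 (SE 0.045), while LMNB1 (SE 0.061) and CDKN1C (0.30, SE 0.093) did not.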
